A study of Mus musculus with 2 samples.

Results

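The guanylate-binding proteins (GBPs) and the immunity-related GTPases (IRGs) are GTPases that cells make in response to interferon. The 10 genes described here, Gbp2 to Gbp7 and Igtp, Iigp1, Irgm1 and Irgm2, were chosen by name as members of these families, and their spots were found through the RefSeq transcript that the array gives for each spot. All 10 had at least 1 probe, 13 probes and 22 spots in all, among 20657 genes with a named probe. RNA came from ATDC5, a mouse chondrogenic line that lays down cartilage matrix when cultured with insulin, transferrin and selenium (ITS). Both lines were stable and doxycycline-inducible: one carried GFP, the other A-CEBP, an inhibitory partner that keeps C/EBP transcription factors off DNA. Each line was grown on a 60 mm dish, given 2 µg/mL doxycycline for 2 days and then ITS for 3 weeks, so both groups shared doxycycline and ITS. The labels do not say whether a line was 1 clone, and no probe named for a transgene was used to check its expression. Each group held 1 sample on 1 array. No spread between cultures could be estimated, no difference had a replicate check, and no p-value was computed.

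Interferon gamma acts through its receptor and the kinases JAK1 and JAK2, and many of its target genes hold the interferon gamma-activated site (GAS). Type I interferons act largely through the interferon-stimulated response element (ISRE), which the complex that contains STAT2 and IRF9 binds and IRF1 binds as well. The proteins made from GBP and IRG genes gather on the vacuoles of intracellular parasites and on bacteria and help to break them open, and several GBPs promote inflammasome activation. Within the IRG family, Irgm1, Irgm2 and Igtp (also called Irgm3) are regulators that sit on host membranes and hold effector IRGs such as Iigp1 (Irga6) inactive there. Most of this is known from macrophages and fibroblasts infected in culture.

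Promoter sequences come first. The genes were chosen by name, not by promoter letters. They belong to interferon-induced families, so interferon elements in their promoters are not independent of that choice. RefSeq promoters (build GRCm38.p6, 250 bases before the gene start and 50 after it) were matched by symbol and searched for 7 of the 10 members: Gbp2, Gbp3, Gbp5, Gbp7, Igtp, Irgm1 and Irgm2. Each was searched on both strands for GAS (TTCNNNGAA), the core of the ISRE (GAAA, any 2 bases, then GAAA again) and a C/EBP motif (TTGCNNAA). The ISRE core was found in 7 of these 7 genes, against 3.44% of all 32851 promoters of that length in the table. GAS was found in 4 of 7, Gbp5, Gbp7, Igtp and Irgm2, against 8.30%, and the same 4 held both motifs, against 0.454%. The C/EBP motif was found in 1 of 7, Gbp3, against 10.8%. The second promoter listed for Gbp3 held none of the 3. A member gene was counted if any of its promoters matched, while the percentages are shares of single promoters. A match is a description of letters, not a measured binding site.

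The next 5 promoters are those of the 3 genes with the largest differences measured on both arrays, Gbp5, Gbp3 and Gbp2, and of the paired IRG genes Igtp and Irgm2. All lie on the plus strand, at chr3:142496684-142496983 for Gbp5, chr3:142559794-142560093 for Gbp3, chr3:142620413-142620712 for Gbp2, chr11:58199306-58199605 for Igtp and chr11:58214727-58215026 for Irgm2. Each is written 5′ to 3′ with motif matches in capitals.
Gbp5: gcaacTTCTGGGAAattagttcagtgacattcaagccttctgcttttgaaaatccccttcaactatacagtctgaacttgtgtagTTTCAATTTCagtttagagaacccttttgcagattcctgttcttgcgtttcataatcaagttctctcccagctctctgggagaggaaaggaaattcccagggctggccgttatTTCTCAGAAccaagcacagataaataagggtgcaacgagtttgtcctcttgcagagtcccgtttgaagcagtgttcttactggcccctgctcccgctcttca
Gbp3: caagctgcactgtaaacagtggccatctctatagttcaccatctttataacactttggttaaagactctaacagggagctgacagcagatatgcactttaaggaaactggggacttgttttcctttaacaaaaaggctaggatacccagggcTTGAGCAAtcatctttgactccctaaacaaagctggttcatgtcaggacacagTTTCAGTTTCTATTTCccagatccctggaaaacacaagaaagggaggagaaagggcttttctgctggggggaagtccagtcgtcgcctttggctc
Gbp2: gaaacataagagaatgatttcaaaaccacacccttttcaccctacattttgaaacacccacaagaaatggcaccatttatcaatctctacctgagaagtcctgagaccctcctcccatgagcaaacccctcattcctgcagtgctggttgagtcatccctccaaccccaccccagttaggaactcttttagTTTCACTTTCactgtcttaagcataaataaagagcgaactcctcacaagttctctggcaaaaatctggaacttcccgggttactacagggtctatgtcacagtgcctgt
Igtp: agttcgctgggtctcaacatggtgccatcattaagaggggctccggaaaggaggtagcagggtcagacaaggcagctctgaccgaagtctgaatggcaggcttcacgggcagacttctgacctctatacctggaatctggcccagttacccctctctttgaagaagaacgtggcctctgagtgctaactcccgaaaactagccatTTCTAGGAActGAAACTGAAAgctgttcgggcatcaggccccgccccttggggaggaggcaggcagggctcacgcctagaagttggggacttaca
Irgm2: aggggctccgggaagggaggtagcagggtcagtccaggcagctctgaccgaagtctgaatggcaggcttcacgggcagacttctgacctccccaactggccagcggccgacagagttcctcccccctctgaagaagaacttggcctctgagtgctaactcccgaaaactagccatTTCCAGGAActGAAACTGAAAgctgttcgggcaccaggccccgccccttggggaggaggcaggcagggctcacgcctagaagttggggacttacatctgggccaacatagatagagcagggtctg

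In Gbp5 the capitals mark GAS matches beginning 245 and 52 bases before the start, TTCTGGGAA and TTCTCAGAA, and an ISRE core on the minus strand at 165. In Gbp3 they mark a C/EBP match at 98 and then 2 ISRE cores on the minus strand, at 45 and 39, that overlap each other. In Gbp2 a single ISRE core on the minus strand begins at 59. In Igtp the GAS match TTCTAGGAA at 45 and the ISRE core GAAACTGAAA at 34 are separated by 2 bases, and in Irgm2 the same arrangement, TTCCAGGAA and GAAACTGAAA, begins at 75. The promoters of Igtp and Irgm2 shared an identical run of 61 bases, and 68.1% of 270 bases matched without gaps when shifted by 30. Among the other 20 pairs of member promoters the longest identical run was 13 bases. Irgm1, on the minus strand at chr11:48871371-48871670, held 2 overlapping ISRE cores beginning at 30 and 24, and Gbp7 held GAS matches at 106 and 87 and an ISRE core at 53.

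Most GBP and IRG transcripts were lower with A-CEBP than with GFP. All 10 members were measured on both arrays. At least a 2-fold lower value was read for 8 of them and none was higher by that much, against 1.70% and 1.26% of the 13860 genes measured likewise. A lower value of any size was read for 10 of 10, against 40.9% of all genes. That count includes Gbp4, for which no direction is given below. Among the 8019 genes within the members' range of mean signal, 1.85% were at least 2-fold lower. The members' median log2 difference was -1.56, or 2.96-fold lower, beside 0.05 for all genes. By probe, 12 of the 13 were measured on both arrays and 10 of those 12 read at least 2-fold lower (all named probes, 1.64%). Levels here are log2 of the processed signal minus each array's 75th percentile, so 0 is that percentile, and all differences are A-CEBP minus GFP. Levels of different probes cannot be set against each other.

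The arrays themselves were alike. Of 59305 non-control spots, between 54.6% and 58.0% were well above background, none was saturated, and the 75th percentiles of signal were 872 and 906 units for GFP and A-CEBP. The log2 difference varied with an SD of 0.11 over replicate spots of a probe, of 0.19 between probes of a gene and of 0.42 over all genes. For member probes measured on both arrays the scanner's error model gave an error of 0.20 to 0.30 on the log2 difference. The median over all genes was 0.05, and 0.28 when scaled on spike-in spots. With that scaling, calls of at least 2-fold changed from 42.4% higher to 67.7% higher. These errors cover measurement only, and RNA from fewer expressing cells cannot be told apart from less RNA per cell.

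**Figure D1:**
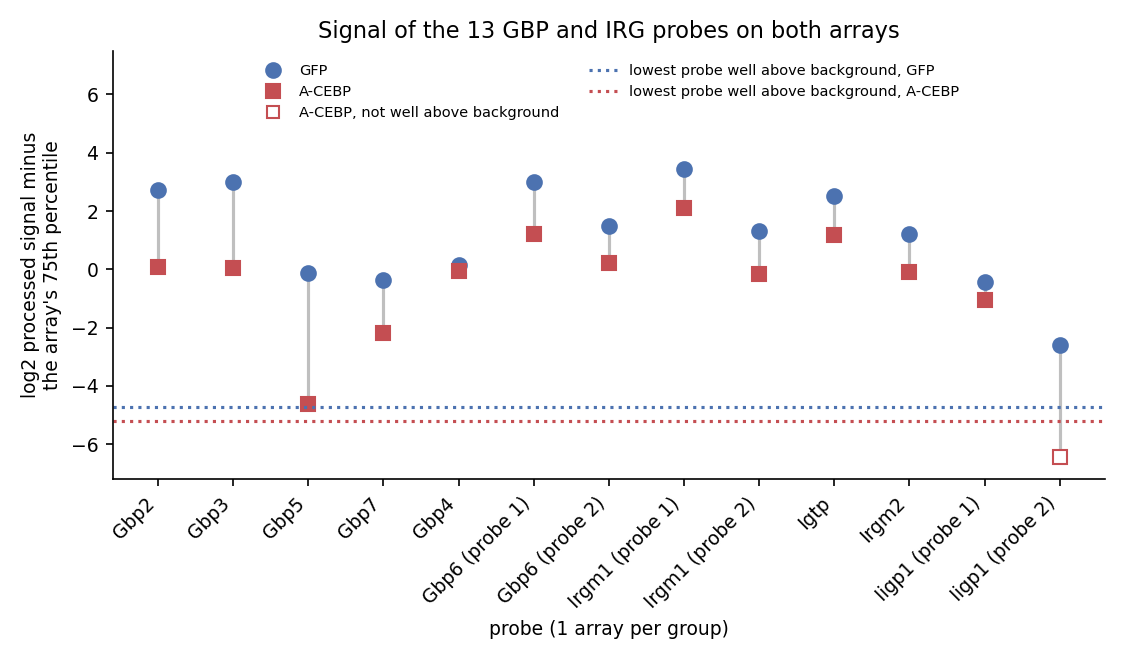
Log2 processed signal minus the array's 75th percentile (y axis) for the 13 probes of the 10 members (x axis), with blue circles for GFP, red squares for A-CEBP, an open square for a spot not well above background and dotted lines at the lowest probe well above background on each array. The A-CEBP value lies under the GFP value at 13 of 13 probes, and Gbp5 lies just over the dotted line in the A-CEBP sample.

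Among the GBPs, the 3 largest differences were those of Gbp5, Gbp3 and Gbp2 on chromosome 3. Gbp5, whose product is linked to inflammasome activation, had a signal of 805 units with GFP and 37.0 with A-CEBP, at log2 levels of -0.12 and -4.61. The A-CEBP sample was 22.6-fold lower, a log2 difference of -4.50, which put it at rank 11 from the lowest of the 13860 genes. That reading stood only 0.58 above the lowest probe well above background on its array, so the size is uncertain, and with normexp background correction it was 7.73-fold. Gbp3 had 6890 and 928 units, levels of 2.98 and 0.03, and was 7.71-fold lower. Gbp2, which encodes a prenylated GBP that coats parasite vacuoles, had 5798 and 959 units, levels of 2.73 and 0.08, and was 6.28-fold lower. Both were bright in the GFP sample and near the 75th percentile in the A-CEBP sample. Gbp7 had 678 and 198 units and was 3.55-fold lower, or 2.82-fold with normexp, close to Gbp6 of chromosome 5. Gbp5, Gbp3 and Gbp2 were the 3 of 10 members at least 4-fold lower, against 0.505% of all genes.

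The GBPs of chromosome 5 differed from each other. Gbp6 had 6972 and 2106 units on its brighter probe and was 3.44-fold lower, with 2429 and 1065 units and 2.37-fold lower on its other probe. The probes of Gbp6 thus pointed the same way and differed by more than the spread between probes of a gene. Gbp4 had 979 and 864 units on its single probe and was 1.18-fold lower, a log2 difference of -0.23 that was little more than the scanner error of 0.20. It came to -0.0019 with spike-in scaling, so no direction is given for Gbp4. Over the 6 GBPs the median log2 difference was -2.24, with 5 at least 2-fold lower.

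The IRG regulators of chromosome 11 differed by nearly equal amounts. Irgm1, needed for control of several intracellular bacteria, had 9465 and 3862 units on its brighter probe and was 2.54-fold lower. Its other probe had 2150 and 805 units and was 2.77-fold lower. Irgm2 had 1999 and 846 units and was 2.45-fold lower. Igtp, whose product resides on the endoplasmic reticulum, was read by 10 spots of 1 probe, which makes it the best measured member. Its 10 spots ran from 4674 to 5220 units with GFP (median 5050) and from 1882 to 2110 with A-CEBP (median 2058). The ranges did not overlap. The mean log2 difference was -1.34 ± 0.06 (SD over 10 spots of 1 array pair, not over cultures), or 2.54-fold lower, and single spots ran from 2.35-fold to 2.70-fold lower. Irgm1, Irgm2 and Igtp spanned log2 differences from -1.35 to -1.29 on the probes that stand for them, narrower than the spread of 0.19 between probes of a gene.

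Iigp1, the effector IRG among the members, gave a different size on each of its probes, both assigned to the same transcript. The brighter probe had 641 and 433 units and was 1.54-fold lower, a log2 difference of -0.62. The other had 144 units with GFP and only 10.4 with A-CEBP, where it was not well above background. It was at least 6.04-fold lower, taking the lowest signal well above background on that array, 24.8 units, in place of the dim reading. Both probes were lower in the A-CEBP sample, and the size for Iigp1 is therefore unsettled. Over the 4 IRGs the median log2 difference was -1.32, with 3 at least 2-fold lower. No test of the GBPs against the IRGs was possible with 1 array a group.

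**Figure D2:**
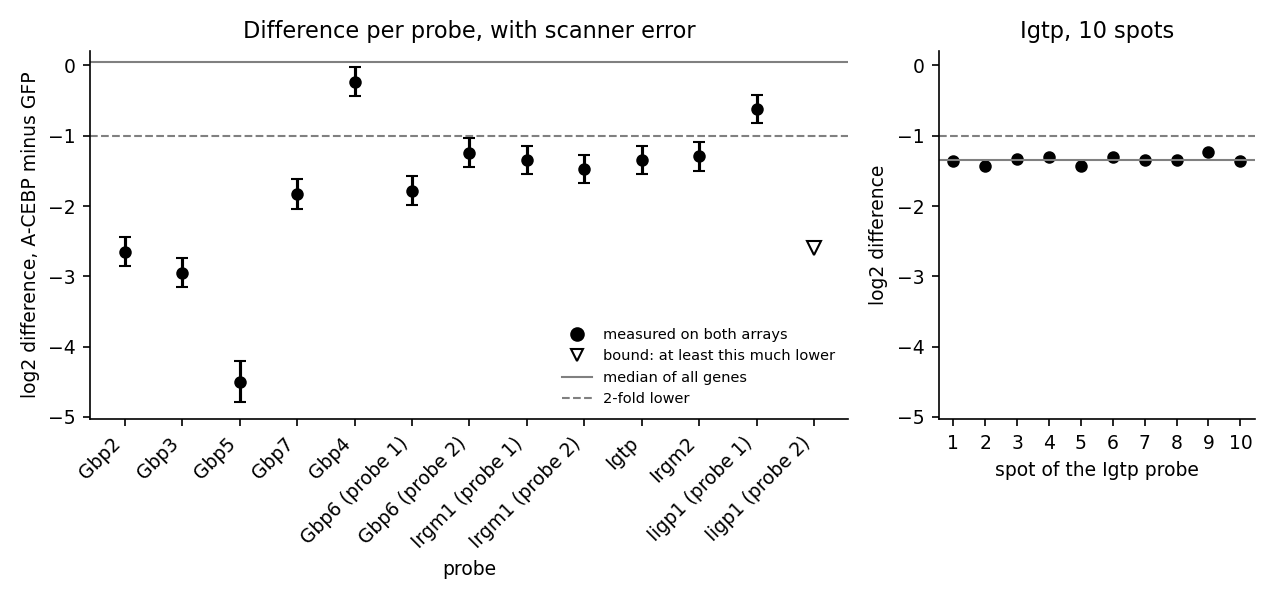
Left, log2 difference (A-CEBP minus GFP) for each member probe with bars for the scanner's error estimate; the open triangle is a bound for Iigp1, the solid line the median of all genes and the dashed line 2-fold lower. Right, the 10 spots of the Igtp probe on the same y axis, all between -1.44 and -1.23, with a solid line at their mean.

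**Figure D3:**
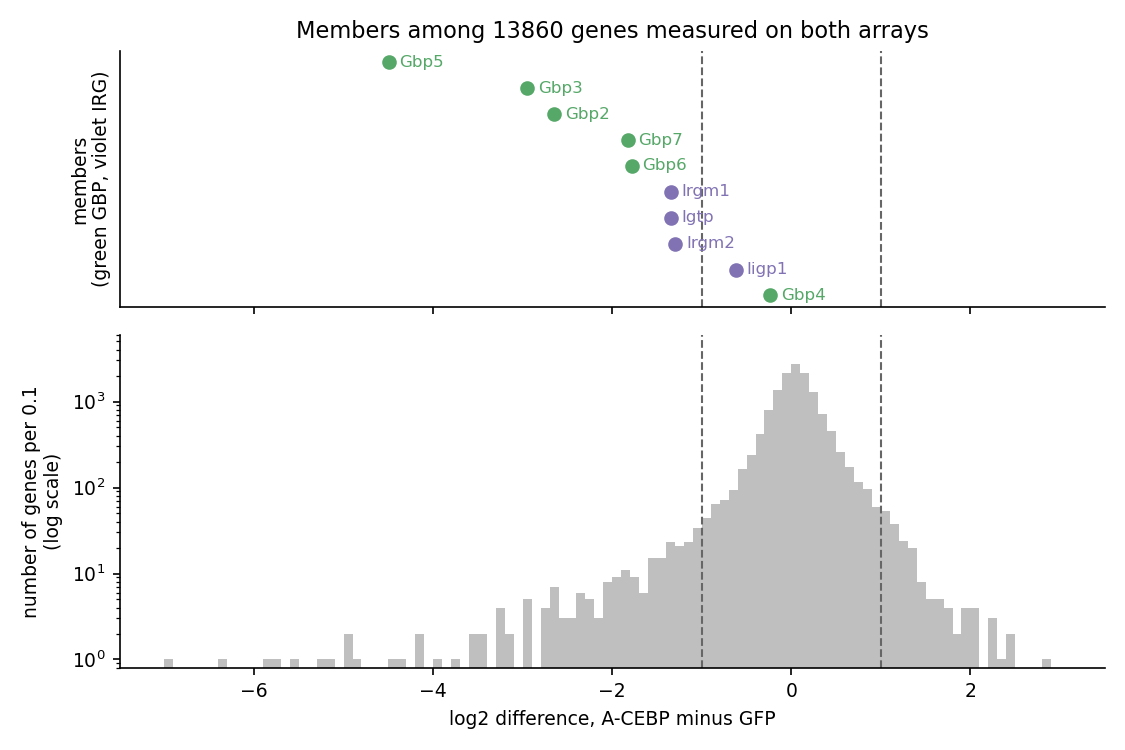
Top, log2 differences of the 10 members (green GBP, violet IRG; the vertical order has no scale). Bottom, number of genes per 0.1 of log2 difference on a log scale for the 13860 genes measured on both arrays; dashed lines mark 2-fold lower and higher, and 8 members lie left of the lower one.

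Several other inducible GTPase genes were lower too. From a list of 13, 9 were measured on both arrays, with 5 at least 2-fold lower, 0 higher and a median log2 difference of -1.32; with normexp background correction 3 were lower, Gbp2b, Tgtp2 and Ifi47. Gbp2b, the mouse gene long called Gbp1, was 6.52-fold lower by 1 probe and 7.36-fold by the other. The effector IRG genes Tgtp2, Ifi47 and Tgtp1 were 4.25-fold, 2.77-fold and 2.50-fold lower, with Tgtp1 dim at 84.4 and 35.0 units and a log2 difference of -1.32, or -0.58 with normexp. Gvin1, a giant inducible GTPase, was 2.59-fold lower. Gbp9 and Gbp10 were 1.83-fold and 1.75-fold lower and Gbp8 differed by 0.08; these lie beside Gbp4 and Gbp6 on chromosome 5. Probes of such close relatives can share signal, and single values within the families are uncertain for that reason.

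A further 8 IRG relatives were found through synonyms in the RefSeq table after the members' values had been seen. Of these, 4 were measured on both arrays and 1 was at least 2-fold lower, Gm4951 (Ifgga2), in the cluster that holds Iigp1. It was 9.23-fold lower, at 352 and 39.6 units, the latter close to the lowest signal well above background, and 3.74-fold lower with normexp. Gm12250 (Irgb10), next to Igtp, differed by -0.27 at 68.7 and 59.2 units, and Gm5431 by -0.07. For 9930111J21Rik1 the brighter probe differed by -0.28 and the other by 0.15, so it has no settled direction. Gbp8, Gm5431 and Gm12250 lay within the scanner error and Gbp4 close to it, so single genes inside the clusters did not share the size of their neighbours' differences.

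The genes flanking the GTPase clusters were set beside them. For each of 5 clusters, the 3 nearest measured genes on each side that belong to neither family were taken, a choice made after the values were seen. Of these 30 genes 0 were at least 2-fold lower and 0 higher, with a median of 0.07 and a range from -0.55 (Lrrc8d, beside the chromosome 5 cluster) to 0.95 (Unc5c, beside the chromosome 3 cluster). Kyat3, next to Gbp2, differed by -0.03 and Zfp692, next to Irgm2, by 0.05. The median of the flanking genes was near that of all genes, while single ones such as Unc5c and Lrrc8d were not. Unc5c was past 2-fold higher with spike-in scaling (log2 difference 1.18) and without scaling (1.01), and with normexp no flanking gene was above 0.35. On the slide, 271 spots within 2 rows and columns of member spots differed by 0.02 in the median, with quartiles at -0.14 and 0.15.

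**Figure D4:**
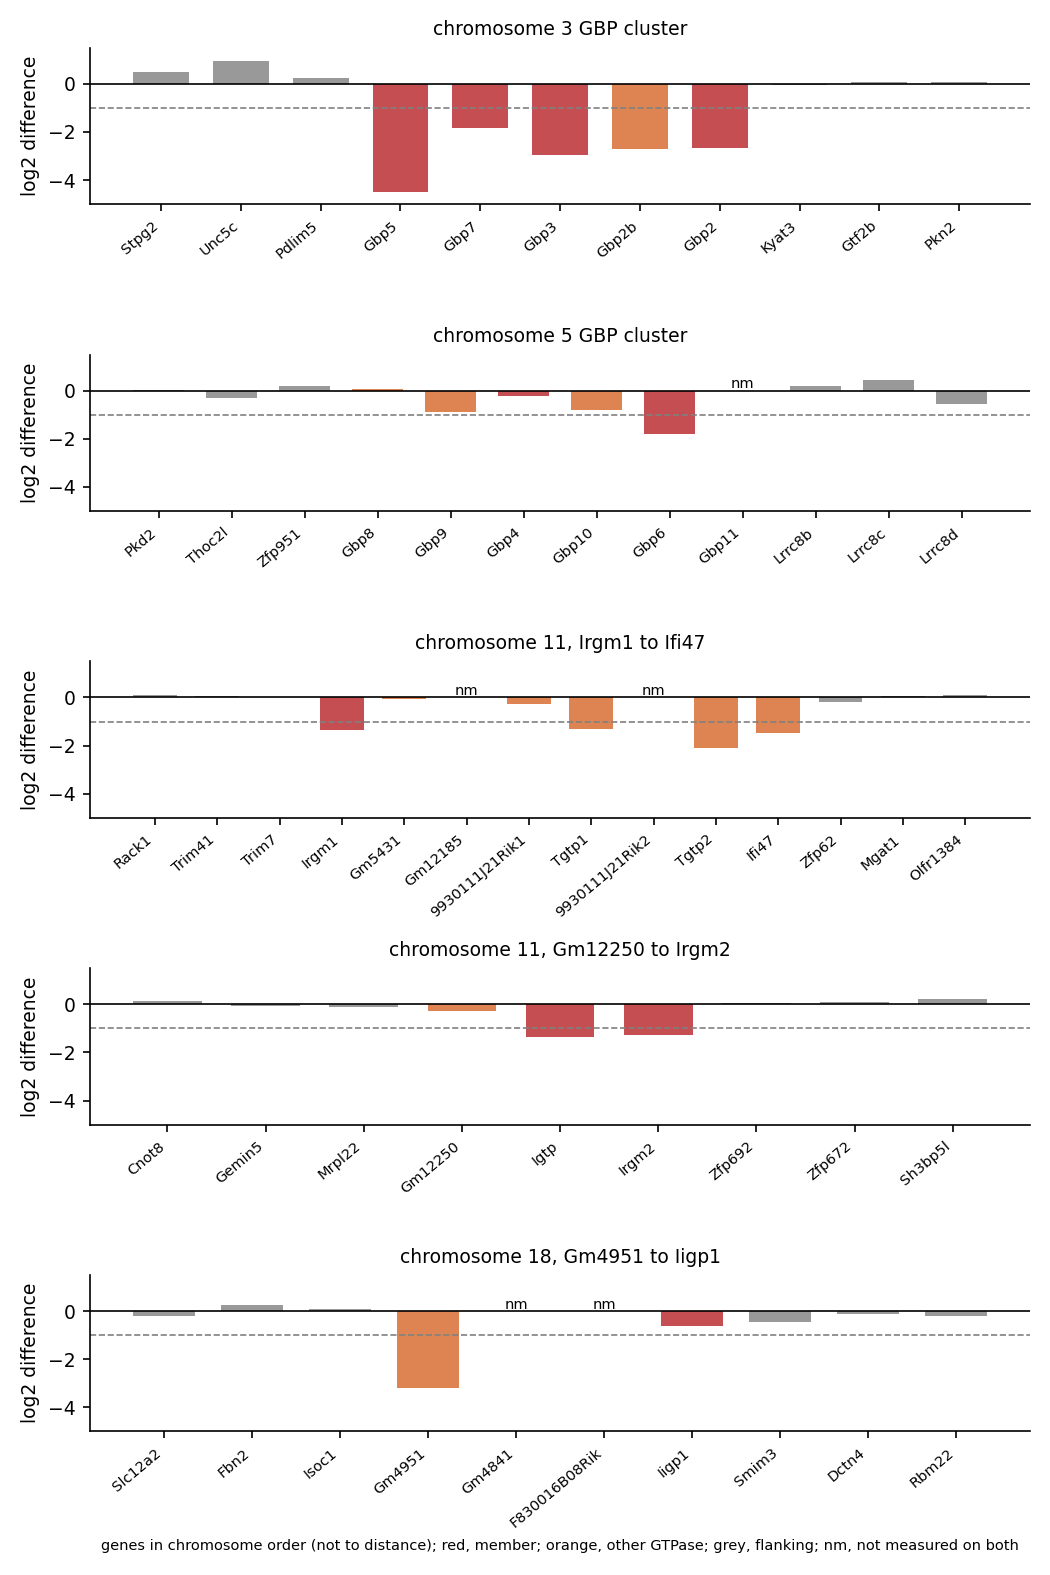
Log2 difference (A-CEBP minus GFP, bars from 0) for genes in chromosome order in 5 GTPase clusters, with members in red, other GTPases in orange and flanking genes in grey; nm marks a gene not measured on both arrays and the dashed line 2-fold lower. All 5 measured GTPases of the chromosome 3 cluster pass that line, while of 5 in the chromosome 5 cluster 1 does, Gbp6.

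The median differences of the signalling lists were smaller than the members', a difference that was not tested, and single genes in them differed as much as members did. In the interferon gamma signalling list, 3 of 14 measured genes were at least 2-fold lower and 0 higher, with a median of -0.09. With spike-in scaling the count was 1 of 14, Nlrc5, and the median 0.15, and without scaling it was 2. Irf1, an activator of GBP genes, was 2.06-fold lower at 8949 and 4502 units, and 1.76-fold with spike-in scaling. Nlrc5, an activator of MHC class I genes, was 3.09-fold lower and the feedback inhibitor gene Socs3 2.34-fold lower, while Socs1 was 1.60-fold and the JAK phosphatase gene Ptpn2 1.41-fold lower. The receptor genes Ifngr1 and Ifngr2 differed by -0.10 and -0.07, and by 0.13 and 0.16 with spike-in scaling, so they have no settled direction. Ciita, dim on both arrays, differed by 0.59. Ifng was not well above background on either array.

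In the type I and III signalling list, 4 of 10 measured genes were at least 2-fold lower, and 0 higher, with a median of -0.13. With spike-in scaling 3 were lower and the median was 0.10. Irf7 was 5.73-fold lower, the ISG15 protease gene Usp18 5.51-fold, and Stat2 and Irf9, whose products belong to the ISRE-binding complex, 2.76-fold and 2.19-fold lower. The ligand genes Ifnb1 and Ifna4 were not well above background on either array. Members and the lists were chosen with earlier results of these data known, so their shared direction is not independent evidence.

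Most other targets linked to interferon gamma were read lower. Of 14 measured, 12 were below 0, against 40.9% of all genes. At least a 2-fold lower value was read for 4 and a 2-fold higher one for 0, with a median of -0.53. With spike-in scaling 3 were at least 2-fold lower and 1 higher by that much. The chemokine gene Cxcl10 was 38.5-fold lower, Cd274, which encodes PD-L1, 2.92-fold, the immunoproteasome gene Psmb8 2.75-fold and the peptide transporter gene Tap1 2.27-fold lower, or 1.93-fold with spike-in scaling. The MHC class II genes H2-Ab1 and H2-Eb1 read the other way, with log2 differences of 0.82 and 0.44. H2-Ab1 was the gene past 2-fold higher with spike-in scaling (2.07-fold). H2-Eb1 was dim at 73.5 and 104 units and differed by 0.17 with normexp. Cd74, also dim, differed by -0.33, or -0.14 with normexp, and H2-Aa and Ido1 were not well above background on either array. Psmb9 and Psmb10 were 1.94-fold and 1.92-fold lower. Cxcl9 was at least 2.53-fold lower, with only its GFP reading well above background.

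Partner genes of the GBP and IRG proteins differed by list. Of 11 genes of the autophagy conjugation system, which directs these GTPases to membranes, 0 were 2-fold apart, with differences from -0.23 to 0.16. Of 5 genes for the prenylation that anchors some GBPs, 0 were 2-fold apart. In the list of inflammasome genes that act with GBPs, 2 of 6 were at least 2-fold lower: the caspase genes Casp4, 35.6-fold at 1721 and 50.2 units, and Casp1, 3.65-fold at 146 and 41.5 units. Pycard, Nek7 and Il18 differed by 0.11, 0.10 and -0.11, and Gsdmd, dim on both arrays, was 1.53-fold lower. Nlrp3, which encodes an inflammasome sensor, was well above background with A-CEBP but not with GFP, and was at least 1.66-fold higher by 1 probe. That bound is a log2 difference of 0.73 at 18.8 and 56.7 units, beside a scanner error of 0.68. The other probe read 1.14-fold higher at 33.2 and 39.2 units, a log2 difference of 0.18 within the scanner error of 0.43. With normexp Casp4 was 13.3-fold and Casp1 2.08-fold lower, and under the stricter filter on dim probes 1 of 4 genes was lower, since Casp1 did not pass. Of 8 reference genes 0 were 2-fold apart, with a median of 0.12.

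**Figure D5:**
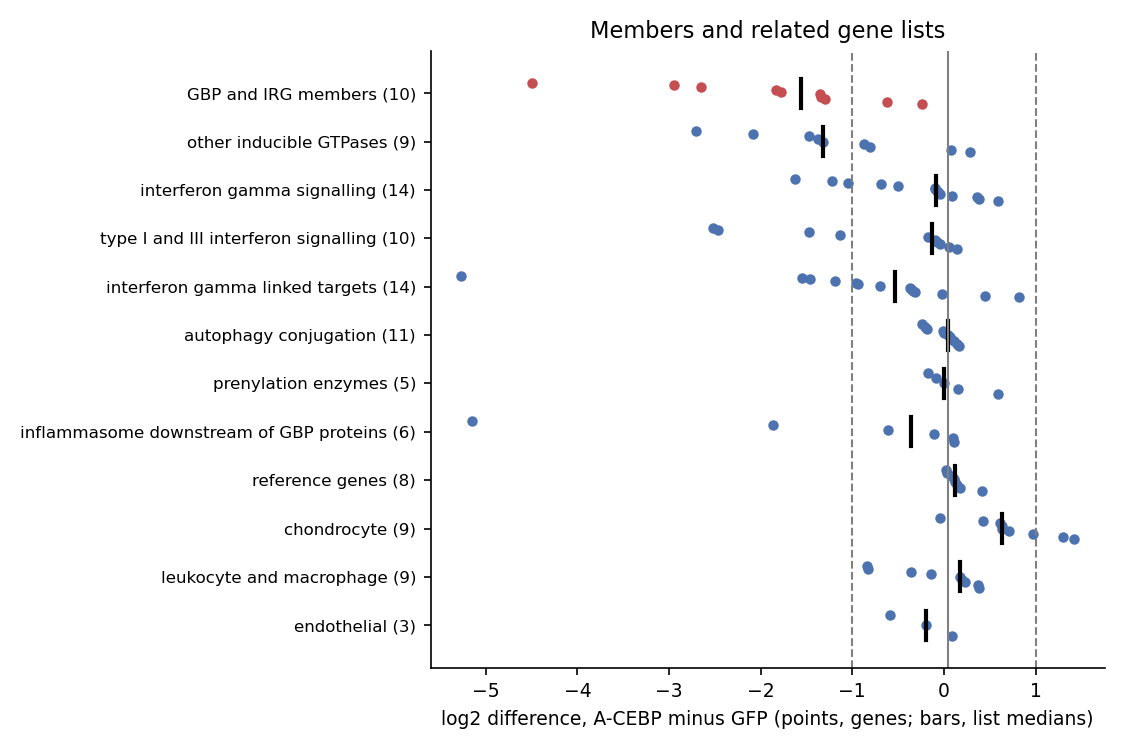
Log2 difference (A-CEBP minus GFP, x axis) for the members (red) and the genes of each related list measured on both arrays (blue; number of genes in brackets), with black bars at list medians, a grey line at the median of all genes and dashed lines at 2-fold lower and higher. The members' median of -1.56 and that of other inducible GTPases, -1.32, lie below the 2-fold line, and the medians of the other lists lie above it.

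Cell type markers were set beside these values. Chondrocyte markers were measured for 9 of 9 genes, 2 of them higher with A-CEBP by at least 2-fold (Hapln1, 2.68-fold, and Acan, 2.46-fold), and their log2 differences ran from -0.04 to 1.42. Of 13 leukocyte and macrophage markers with a probe, 9 were measured on both arrays and 0 were 2-fold apart. Their differences ran from -0.84 to 0.38 with a median of 0.18, and 4 of the 9 were below 0. Laptm5, Nkg7, Cd3e and Coro1a read higher with A-CEBP, by 0.38, 0.37, 0.20 and 0.18. Laptm5 was dim at 61.8 and 83.6 units, and differed by 0.66 on its other probe and by 0.07 with normexp. The other Nkg7 probe was not well above background on either array. Csf1r differed by -0.14 on its brightest probe and by 0.36 on another. The monocyte and macrophage genes Cd14 (827 and 479 units) and Lyz2 (125 and 73.0 units) were 1.79-fold and 1.77-fold lower, and Fcer1g was 1.28-fold lower. Itgam, read by its brightest probe, differed by 0.23 and by another probe by -0.57. The pan-leukocyte gene Ptprc, and Adgre1, Tyrobp and Cd52, were not well above background on either array. Of 7 endothelial markers, 3 were measured, 0 were 2-fold apart, the differences ran from -0.58 to 0.09, and Cdh5, Tek, Tie1 and Emcn were not well above background on either array. The part of the higher chondrocyte markers, or of the lower Cd14 and Lyz2, in the GTPase differences was not tested. Levels were not summed over markers, since levels of different probes cannot be set against each other.

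The ISRE core was also looked up in genes outside the members. Of 389 measured genes with it in their promoter 33 (8.48%) were at least 2-fold lower, against 128 of 10648 (1.20%) without it, and the medians were -0.01 and 0.05. For GAS the shares were 2.14% of 935 genes with it and 1.40% of 10102 without, and for the C/EBP motif 2.65% of 1132 and 1.32% of 9905. These shares describe 1 pair of arrays. Only the members were left out, so other inducible GTPase genes stayed in. Of those, Gbp2b, Tgtp1 and Tgtp2 held the ISRE core and were at least 2-fold lower, so they are among the 33. Ifi47, 2.77-fold lower, held no ISRE core but 2 matches to the C/EBP motif, and Gbp2b held 1 such match as well. The ISRE and C/EBP shares are therefore not independent of the values given above. How much of either share rests on such genes was not tested. Of the 7 members whose promoter was searched, 7 held the ISRE core and 7 were at least 2-fold lower. No searched member lacked either, so these counts cannot relate the motif to the difference. The promoters of Gbp4 and Iigp1, the members under 2-fold, and of Gbp6 were not analysed here.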

How the data were processed

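Per the labels' protocols, 0.1 µg of total RNA was labelled with Cy3 and put on 1-colour Agilent mouse arrays. The deposited scanner files give a linear processed intensity for each spot, from which the scanner software had taken background and spatial trend, per the file headers. The submitters' processing notes name Agilent Feature Extraction 10.10.1.1. The authors' deposited table holds the same intensity multiplied by 1 constant per array, 1.24 for GFP and 1.15 for A-CEBP (column medians 70.9 and 67.4). The basis of these constants was not given in the sources. Neither table is centred.

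Log2 processed signal minus each array's 75th percentile was used. Control spots and 293 outlier spots were left out, and spots of 1 probe averaged. Probes were taken as well above background where the scanner software marked over 50% of their spots so. The brightest probe that passed on both arrays, by mean signal, stood for its gene. When a probe passed on 1 array only, the fold was a lower bound against the higher of the dim reading and the lowest probe well above background. The size rule was 2-fold. The number of arrays limits the precision. Transcript accessions were matched to a RefSeq table of GRCm38.p6, which named 27229 of 55671 probes and was used for names and gene order only. Python 3.11.15 and limma 3.58.1 (normexp, offset 50) were used, and the procedure was tested on simulated data.

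The members, lists and alternatives were chosen with earlier results of these data known. All members were named. From each list up to 6 genes with the largest differences were named, plus Irf1, Ifngr1, Ifngr2, Socs1, Ifi47 and Tgtp1. An item of the interferon gamma signalling list is not reported here and was left out of its counts. Gbp8, Gbp10, Cxcl9, Nlrp3, H2-Ab1, H2-Eb1 and Cd74 were named outside this rule, after their values were seen. So were the cell type markers, the genes not well above background, the IRG relatives and the flanking genes.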

Additional observations from a re-analysis of the deposited data

How the results depend on the processing

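Of 109 values for the 10 members under 11 alternatives, 109 stayed below 0, though Gbp4 only at -0.0019 with spike-in scaling. Of the 109, 95 moved by less than the spread of 0.19 between probes of a gene. These are not 109 separate checks. Keeping outlier spots or changing the filter left each retained member value unchanged, and the choice of probe altered only Gbp6 and Irgm1. Median centring, no scaling, spike-in scaling and the authors' values shifted all members alike. The count of 8 members at least 2-fold lower held under 10 alternatives and was 7 of 9 with a stricter filter on dim probes (a level at least 1 log2 unit over the lowest probe well above background), which left out Gbp5. The members' median of -1.56 was -1.35 with that filter, -1.33 with spike-in scaling and -1.35 with the probe of smallest difference. Over the alternatives Gbp5 ranged from 7.73-fold to 23.4-fold lower, Gbp3 from 6.56-fold to 7.99-fold, Gbp2 from 5.34-fold to 6.51-fold, and Irgm2, nearest to the rule among the 8, from 2.09-fold to 2.54-fold. Member probes at least 2-fold lower numbered 9 of 11 to 11 of 13. Over all genes 236 were at least 2-fold lower, 883 without the filter on dim probes, and 174 were higher, 603 without that filter, 97 with normexp and 359 with spike-in scaling. The normexp alternative used median signals, chosen after seeing the data, since the one planned on mean signals was not run for lack of that column. No paired analysis was possible because each group had 1 array and no test was made. Signal over background limits Gbp5, Gm4951, Tgtp1, Casp1 and Casp4, which were dim in the A-CEBP sample.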
